A study of Homo sapiens with 4 samples.

Results

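The genes described here are 6 hosts of small nucleolar RNAs (snoRNAs): WDR43, SNHG1, GAS5, SNHG5, NCL and EIF4A2. For each gene, peaks of the 5 Gy and 0 Gy lists that share at least 1 bp with its interval on hg19 were collected. The interval of WDR43 is a stretch of neighbouring peaks of both lists joined within 10 kb, which was picked out because its covered length was larger at 5 Gy than at 0 Gy. The other 5 are the gene spans supplied with the names. Of the 36216 peaks at 5 Gy, 28 lay in these genes, as did 30 of the 47930 peaks at 0 Gy. The peaks come from RNA immunoprecipitation followed by sequencing (RIP-seq) in WS1, a human skin fibroblast line, with 1 HuR library and 1 control IgG library after 5 Gy of X-rays and 1 of each at 0 Gy. The time between irradiation and harvest is not given in the sources used here. With 1 library per group there was no test, and no value below has a replicate check. Differences are between these 2 lists.

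HuR, the product of ELAVL1, is an RNA-binding protein that binds U-rich and AU-rich stretches of RNA and stabilises many of its target mRNAs. Most human snoRNAs are not transcribed on their own but are cut out of the introns of host genes, and they guide the modification of ribosomal RNA: C/D box snoRNAs direct ribose methylation and H/ACA box snoRNAs direct pseudouridylation. Some hosts encode proteins that themselves serve ribosome production or translation, while others yield a spliced RNA without a long conserved reading frame. Host RNAs of this kind often begin with a terminal oligopyrimidine tract, a C followed by further C and T bases, which ties the translation of such mRNAs to growth signals.

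By the RefSeq gene table, WDR43 holds 3 snoRNA genes (SNORD53, SNORD53B and SNORD92), SNHG1 holds 9, GAS5 holds 11, SNHG5 holds 2 (SNORD50A and SNORD50B), NCL holds 3 (SNORA75, SNORD20 and SNORD82) and EIF4A2 holds 5. WDR43, NCL and EIF4A2 code for proteins, and SNHG1, GAS5 and SNHG5 are listed as long non-coding RNAs. The first 50 bases from the annotated start of each host RNA are shown because a terminal pyrimidine tract stands at the very start of the RNA. They were read 5′ to 3′ from the RefSeq promoter table of GRCh38.p14, and not from the hg19 positions of peaks. Capitals mark an unbroken run of C and T that begins at the annotated first base.
SNHG1: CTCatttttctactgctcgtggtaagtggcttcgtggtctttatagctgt
SNHG5: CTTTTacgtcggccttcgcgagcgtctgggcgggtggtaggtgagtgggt
EIF4A2: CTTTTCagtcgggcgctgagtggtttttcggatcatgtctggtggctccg
WDR43: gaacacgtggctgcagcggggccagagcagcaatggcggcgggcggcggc
NCL: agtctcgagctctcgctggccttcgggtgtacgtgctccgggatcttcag
GAS5: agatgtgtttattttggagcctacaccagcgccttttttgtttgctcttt
The annotated starts of SNHG1, SNHG5 and EIF4A2 open on C with runs of 3, 5 and 6 pyrimidines. In the whole table of 35116 promoters, 7.5% open on C with a run of at least 3, and 4.07% with a run of at least 5. Those of WDR43, NCL and GAS5 open on a purine and have no such run at the annotated base. RefSeq holds 1 start per gene in this table, and other starts were not examined. A gene without a run here may therefore have a tract at another start. The letters TTTTT, read on the RNA strand only, occur in these 50 bases of SNHG1, EIF4A2 and GAS5 and in 3.72% of all entries, while ATTTA occurs in none of the 6 and in 2.28% of all entries. A match is a description of the letters and not a binding site.

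Peaks were present in 3 of the 6 genes. At 5 Gy these were WDR43, GAS5 and NCL, and at 0 Gy they were WDR43 and NCL. SNHG1, SNHG5 and EIF4A2 had no peak in either list. The interval of WDR43 holds peaks by construction. Peaks covered 30.35 kb of the 6 genes at 5 Gy and 18.7 kb at 0 Gy, a ratio of 1.62. Of this difference of 11.65 kb, 9.9 kb lay in WDR43, which was chosen for it. The other 5 genes together had 7.15 kb covered at 5 Gy and 5.4 kb at 0 Gy, a ratio of 1.32, which combines GAS5, with peaks at 5 Gy alone, and NCL, with less covered length at 5 Gy. Of the 2 genes with peaks at both doses, 1 (WDR43) was covered at least 1.5-fold more at 5 Gy. Among all 10958 regions with peaks of both lists joined within 10 kb, 11.6% were covered at least 1.5-fold more at 5 Gy and 17.7% at least 1.5-fold less, with a median ratio of 0.99. WDR43 was chosen from this same contrast, so nothing is read from its place in that distribution.

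**Figure D1:**
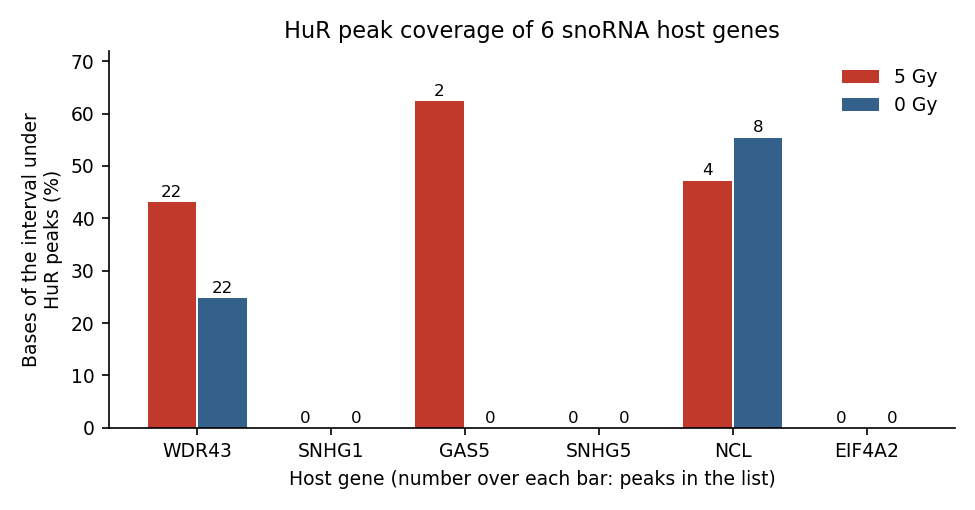
Share of each gene interval under HuR peaks (percent of bases, vertical axis) in the 5 Gy list (red) and the 0 Gy list (blue), with the number of peaks above each bar and 1 list per bar, so no error bar. WDR43 has 43.1% at 5 Gy and 24.7% at 0 Gy, GAS5 has 62.4% and 0, NCL has 47.2% and 55.4%, and the other 3 genes have no peak.

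WDR43 encodes a WD-repeat protein, the human counterpart of yeast Utp5, of the small subunit processome, a nucleolar particle in which pre-ribosomal RNA is processed. Its interval, chr2:29117486-29171303 on the forward strand, held 22 peaks in each list. They covered 23.2 kb (43.1% of 53.82 kb) at 5 Gy and 13.3 kb (24.7%) at 0 Gy, a ratio of 1.74. The number of peaks was thus equal and their length was not: the median WDR43 peak measured 768.5 bp at 5 Gy against 522 bp at 0 Gy. Peaks were also longer at 5 Gy over the whole lists, with a median of 559 bp at 5 Gy and 448 bp at 0 Gy. Nearly all sequence covered at 0 Gy was also covered at 5 Gy (95.6%, 12.72 kb), while 10.49 kb was covered at 5 Gy alone and 0.59 kb at 0 Gy alone. The interval was chosen for its larger covered length at 5 Gy, so this split is a description. The same split over the whole lists is not given here.

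Most of the longer coverage of WDR43 at 5 Gy lay in the first 30 kb of its 53.8 kb interval. Of the 9.9 kb difference, 9.15 kb fell there. From 0 to 10 kb the peaks covered 4.73 kb at 5 Gy and 2.45 kb at 0 Gy, from 10 to 20 kb 7.9 kb at 5 Gy and 3.32 kb at 0 Gy, and from 20 to 30 kb 4.71 kb at 5 Gy and 2.42 kb at 0 Gy. From 30 to 40 kb the lists were closer, with 3.53 kb at 5 Gy and 3.12 kb at 0 Gy. The stretch from 40 to 50 kb held 0.4 kb at 5 Gy and none at 0 Gy. The last 3.8 kb, from 50 to 53.8 kb, held 1.94 kb at 5 Gy and 1.99 kb at 0 Gy.

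A single 5 Gy peak of 7335 bp accounted for 41.2% of the difference in covered length. It ran from 6.8 to 14.1 kb after the start of the interval (chr2:29124277-29131611) with a score of 1942.48. In the 0 Gy list the same stretch held 5 separate peaks with a summed length of 3259 bp and scores from 129.91 to 518.9. In the whole 5 Gy list, 32 peaks (0.088%) lay over 5 or more 0 Gy peaks, and 121 were at least 7335 bp long. The 7335 bp peak is the longest in an interval chosen for its larger covered length at 5 Gy, so these counts are a description. Without this peak and the 0 Gy peaks under it, WDR43 had 15.87 kb covered at 5 Gy and 10.05 kb at 0 Gy, a ratio of 1.58.

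**Figure D2:**
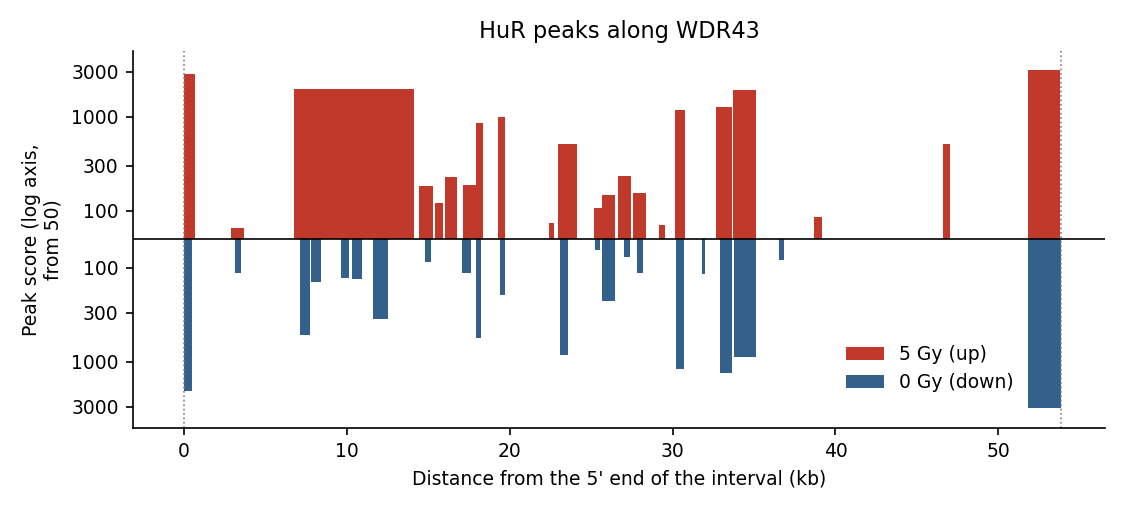
Peaks of the 5 Gy list (red, upward) and the 0 Gy list (blue, downward) along WDR43, with the distance from the 5′ end of the interval in kb on the horizontal axis and the authors' peak score on a log axis that starts at 50 on the vertical. Bar width is peak length and dotted lines mark the interval. The 7335 bp peak at 5 Gy faces 5 separate peaks at 0 Gy, and the peaks at both ends of the interval are present in both lists. A peak of either list at each end follows from how the interval was joined.

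Beside the 7335 bp peak, high scores in WDR43 were found at the ends of its interval and from 30.2 to 35.1 kb. That a peak of either list stands at each end follows from how the interval was joined. The score is the authors' deposited peak score, which has the form of a scaled negative logarithm of a p-value for HuR over IgG, and a score of 3100 is a tie shared by 2000 peaks at 5 Gy and 2481 at 0 Gy. At the 3′ end, a peak of 1936 bp at 5 Gy and 1994 bp at 0 Gy scored 3100 in both lists. At the 5′ end, the peak was 709 bp long with a score of 2861.51 at 5 Gy and 501 bp long with a score of 2034.73 at 0 Gy. From 32.7 to 35.1 kb lay a pair of neighbouring peaks. The first of them scored 1264.39 at 5 Gy and 1306.21 at 0 Gy, and the other 1898.12 at 5 Gy and 893.61 at 0 Gy. A further peak near 30.2 kb scored 1185.68 at 5 Gy and 1178.75 at 0 Gy. Scores of at least 1000 were reached by 6 peaks at 5 Gy and 4 at 0 Gy.

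In 15 cases a WDR43 peak of one list lay against exactly 1 peak of the other list and that peak against no further one. Of these pairs, 14 were longer at 5 Gy and 1, the peak at the 3′ end, was shorter. The median length ratio was 1.42 in WDR43, against 1.03 over all 19750 such pairs, of which 58.3% were longer at 5 Gy. Scores were higher at 5 Gy in 10 pairs, lower in 4 and tied in 1. The median score ratio in WDR43 was 1.41, while that of all pairs was 0.86. A score at least 1.5-fold higher at 5 Gy was found in 7 of the 15 pairs and in 14.5% of all pairs, and one at least 1.5-fold lower in 3 of the 15 and in 35.6% of all pairs. These values belong to the contrast by which WDR43 was chosen and are given as a description.

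Paired scores within WDR43 did not all differ in the same direction. The pair with the highest score ratio lay 19.3 kb after the start and scored 992.28 at 5 Gy and 194.65 at 0 Gy, a ratio of 5.1. This is the largest of 15 ratios in an interval chosen from the same contrast, and is given as a description. Another pair, near 26.7 kb, scored 236.21 at 5 Gy and 76.94 at 0 Gy. By contrast, the peak near 23 kb scored 515.83 at 5 Gy and 839.16 at 0 Gy although it was 1148 bp long at 5 Gy and 535 bp at 0 Gy. The peak near 2.9 kb was likewise longer (810 bp at 5 Gy, 399 bp at 0 Gy) with a lower score (65.53 at 5 Gy, 112.87 at 0 Gy).

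Peaks of WDR43 found at 1 dose only were mostly low-scoring. In the 5 Gy list 6 of 22 had no 0 Gy peak over them, against 27.0% of all 5 Gy peaks. In the 0 Gy list 2 of 22 had no 5 Gy peak over them, against 41.9% of all 0 Gy peaks. WDR43 was chosen for its larger covered length at 5 Gy, so these counts are a description only. The 5 Gy peak from 46.6 to 47 kb (399 bp) scored 513.27 and was 4.8 kb from any 0 Gy peak. The other 5 scored 231.23, 121.22, 86.26, 75.22 and 71.69, at 0.2 to 1.9 kb from a 0 Gy peak. The 0 Gy peaks without a match scored 115.55 (172 bp) and 83.47 (288 bp).

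NCL encodes nucleolin, an abundant nucleolar RNA-binding protein with roles in ribosomal RNA transcription and processing, and its mRNA has been described as a HuR target. Over its interval, chr2:232319459-232329205 on the reverse strand, there were 4 peaks at 5 Gy and 8 at 0 Gy. They covered 4.6 kb (47.2% of 9.75 kb) at 5 Gy and 5.4 kb (55.4%) at 0 Gy, a ratio of 0.85, which did not pass the 1.5-fold rule. All 4 peaks of the 5 Gy list lay against a 0 Gy peak, where 27.0% of the whole 5 Gy list did not. In the 0 Gy list 4 of the 8 had no 5 Gy peak over them, close to the 41.9% of the whole 0 Gy list. They were 256 to 373 bp long and scored 152.32, 194.16, 200.38 and 268.68. Each of them lay 0.2 to 1.0 kb from a 5 Gy peak.

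Scores in NCL were lower at 5 Gy in all 4 pairs, and all 4 peaks were longer at 5 Gy. Over all pairs, 59.1% scored lower and 58.3% were longer at 5 Gy, so both directions are the more frequent ones in these lists. At the 3′ end of the gene, a peak of 1885 bp at 5 Gy (chr2:232319202-232321086) had a score of 102.93, and the 0 Gy peak there (chr2:232319270-232320878, 1609 bp) had a score of 2336.75. The ratio of 0.044 had no lower value among the 19750 pairs of the 2 lists. NCL was among members chosen with earlier results of these data known, so this rank is a description. Among the 2457 pairs with a 0 Gy score of at least 1000 and under 3000, the median ratio was 0.66. The lists hold only the score of HuR over IgG, so fewer HuR reads and more IgG reads at this place cannot be told apart.

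The remaining NCL pairs differed less. The peak near 7.3 kb scored 263.17 at 5 Gy and 606.6 at 0 Gy. The long peak in the 5′ part of the gene, 2550 bp at 5 Gy and 2268 bp at 0 Gy, scored 325.07 at 5 Gy and 662.92 at 0 Gy. The peak on the start of the gene was the strongest of the 5 Gy list in NCL, with 740.78 at 5 Gy and 820.22 at 0 Gy. Thus the highest NCL score stood at the 5′ end in the 5 Gy list and at the 3′ end in the 0 Gy list. Scores at least 1.5-fold lower at 5 Gy were found in 3 of the 4 pairs, against 35.6% of all pairs.

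**Figure D3:**
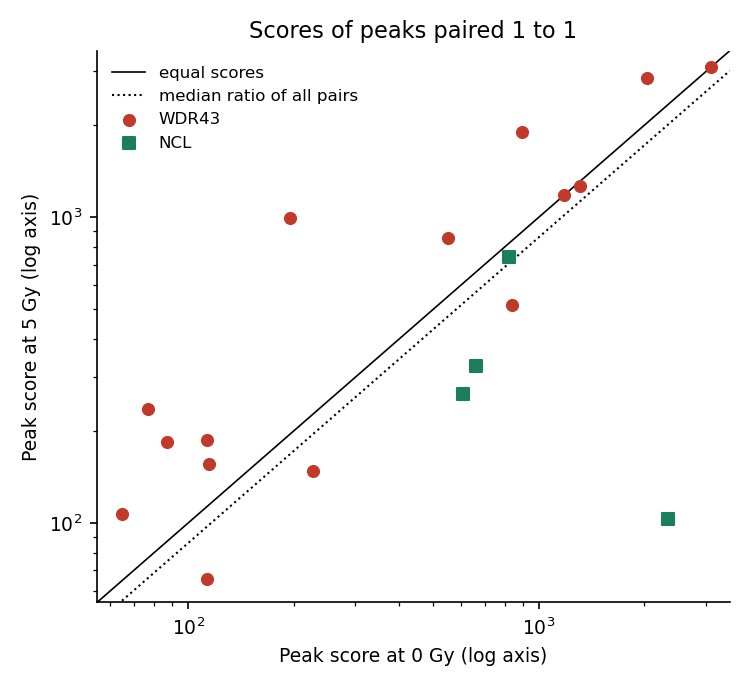
Score at 5 Gy (vertical, log axis) against score at 0 Gy (horizontal, log axis) for the 15 WDR43 pairs (circles) and 4 NCL pairs (squares) of peaks that lie only against each other, with a solid line at equal scores and a dotted line at the median ratio of all pairs, 0.86. The WDR43 points lie above the solid line in 10 pairs, and the 4 NCL points lie below it, the lowest with 102.93 at 5 Gy and 2336.75 at 0 Gy.

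GAS5 is the host first known as a growth arrest specific transcript, whose spliced RNA has been described as a decoy for the glucocorticoid receptor. Its interval, chr1:173833038-173837125 on the reverse strand, held 2 peaks at 5 Gy and none at 0 Gy. Together they covered 2.55 kb (62.4% of 4.09 kb) at 5 Gy. The stronger peak (chr1:173836126-173837121, 996 bp) began 4 bp inside the 5′ end and scored 313.2, above 71.4% of the 5 Gy list, with the nearest 0 Gy peak 2.2 kb away. Neither GAS5 peak had a 0 Gy peak over it, and the same held for 27.0% of all 5 Gy peaks. Among the 10685 5 Gy peaks with a score of at least 300, 1.52% had no 0 Gy peak over them and 0.880% had none within 1 kb. The cut of 300 lies just under the score of the stronger GAS5 peak and was chosen for it. The other GAS5 peak (chr1:173832789-173834590, 1802 bp, of which 1553 bp lay inside) scored 65.3, close to the lowest score of the list, 60.01. No fold is given, because GAS5 had no peak at 0 Gy and the lists hold only places that passed the score minimum.

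The sequence around GAS5 had peaks at both doses. Beyond its 3′ end, 3.5 kb away, stood a peak of 2950 bp with a score of 1137.45 at 5 Gy and of 3046 bp with a score of 1765.79 at 0 Gy. Beyond its 5′ end, 2.2 kb away, a 0 Gy peak of 307 bp scored 65.91, and the next 5 Gy peak on that side was 63.2 kb away. The joined region that includes GAS5 was covered over 5.75 kb by 3 peaks of the 5 Gy list and over 3.98 kb by 4 of the 0 Gy list, a ratio of 1.44. In the RefSeq table GAS5 overlaps ZBTB37 and GAS5-AS1. The peak lists give no strand, so RNA of GAS5 and of these partners cannot be told apart.

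**Figure D4:**
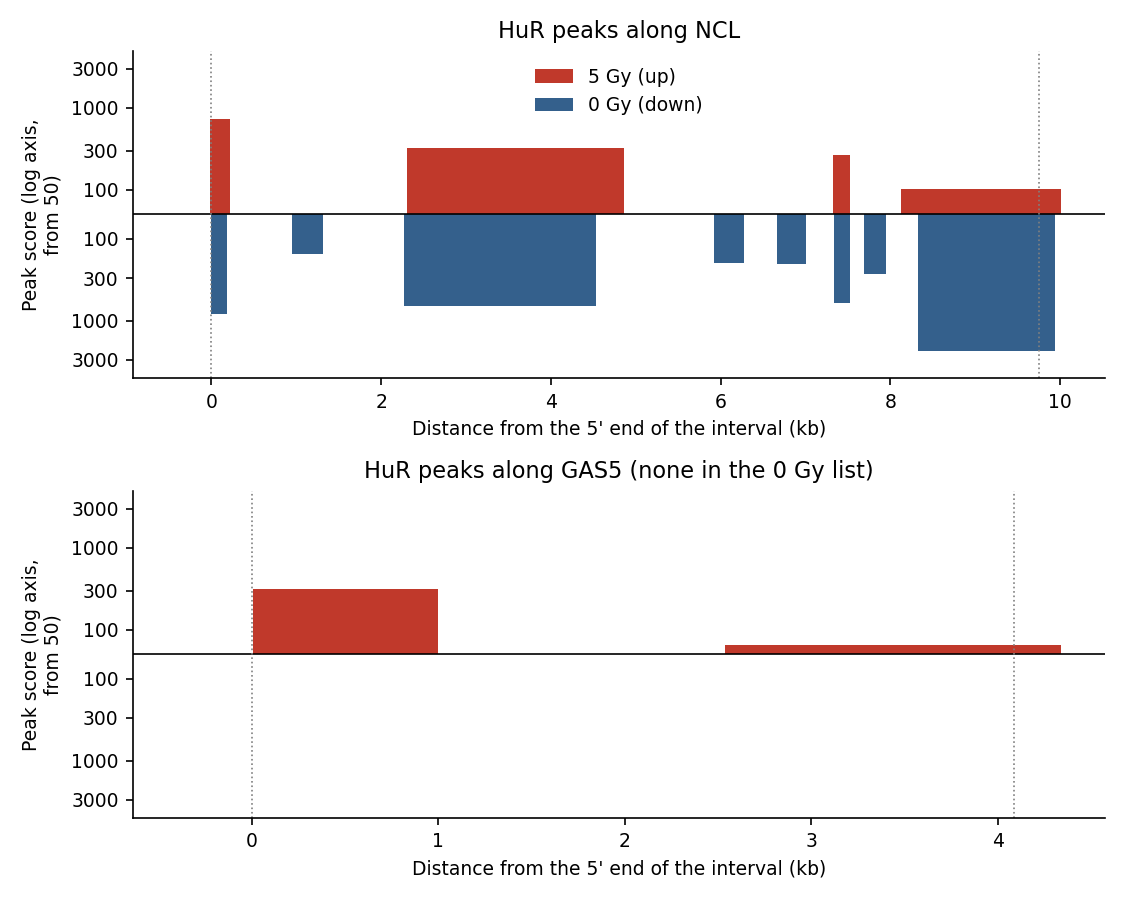
Peaks along NCL (top) and GAS5 (bottom) in the 5 Gy list (red, upward) and the 0 Gy list (blue, downward), with the distance from the 5′ end of the interval in kb and the authors' peak score on a log axis that starts at 50. Bar width is peak length and dotted lines mark the interval. The NCL peak at the 3′ end scores 102.93 at 5 Gy and 2336.75 at 0 Gy, and GAS5 has 2 peaks at 5 Gy and none at 0 Gy.

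SNHG1, SNHG5 and EIF4A2 had no peak at either dose. SNHG1 (chr11:62619460-62623386) is a multi-snoRNA host whose spliced RNA is not known to code for a protein. The nearest peak was 15.2 kb away at 5 Gy (411 bp, score 74.29, beyond the 5′ end) and 21.0 kb away at 0 Gy (885 bp, score 102.6, beyond the 3′ end). SNHG5 (chr6:86386725-86388451), the host of SNORD50A and SNORD50B, stood in a gap between peaks. Its nearest peak was 36.9 kb away in both lists, with a score of 475.77 at 5 Gy and 318.62 at 0 Gy, and on the other side the next peak was 1218.3 kb away in both.

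EIF4A2 (chr3:186501361-186507685) encodes a paralogue of the RNA helicase eIF4A, which unwinds mRNA for ribosome loading. Its nearest peak was 12.6 kb away at 5 Gy (525 bp, score 100.29) and 8.4 kb away at 0 Gy (351 bp, score 64.47), both beyond the 3′ end. On the 5′ side a peak 21.6 kb away was strong in both lists, with a score of 2699.1 at 5 Gy and 2360.76 at 0 Gy. A gene without a peak had no stretch that passed the score minimum over IgG. It may still be transcribed or bound, since the lists hold no read counts and sequencing depth is not known from them.

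**Figure D5:**
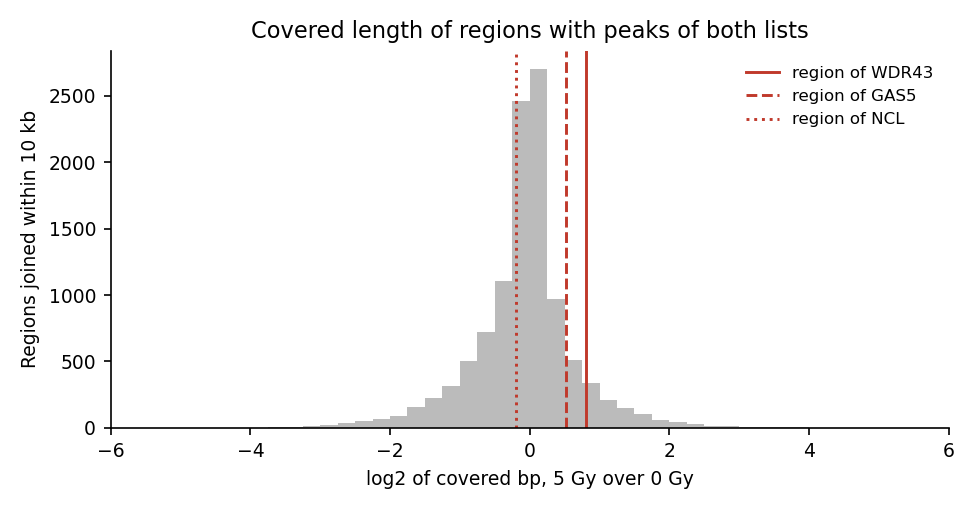
Number of joined regions (vertical axis) by the log2 of covered bp at 5 Gy over 0 Gy (horizontal axis), for the 10958 regions with peaks of both lists, with red lines at the regions of WDR43 (1.74, solid), GAS5 (1.44, dashed) and NCL (0.87, dotted). WDR43 was chosen from this same contrast, so nothing is read from the place of its line. The GAS5 and NCL lines lie within 1.5-fold. The GAS5 line is for the joined region, whose 0 Gy peaks all lie outside GAS5 itself.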

How the data were processed

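RNA recovered with HuR or IgG from WS1 cells at 5 Gy and 0 Gy was sequenced in 4 libraries, 1 per group, and per the submitters' processing notes the tools were cutadapt 1.9.1 and Bowtie2 2.2.4 and the build was hg19. The authors deposited 1 peak list per dose, with a chromosome, start, end, name and peak score per line. Peak names begin with MACS, per the deposited lists, and its version is not stated. The list names carry 1e-06, read here as the p-value cutoff of the peak calling. They carry further numbers whose meaning is not stated. The members were chosen with earlier results of these data known, and so were the tests and lists.

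Intervals were copied from the rule that names the 6 genes. Covered length is the sum of peak bases inside an interval, starts are counted from 1, and a peak was shared when 1 bp overlapped the other list. All 6 genes and the strongest, longest and unmatched peaks in them are named. Regions are peaks of both lists joined within 10 kb. No hg19 genome or annotation was used, so the intervals were not checked against one, and fibroblast markers, further snoRNA hosts and peak sequences were not analysed here. Names, hosted snoRNAs, strands and first bases come from RefSeq on GRCh38.p14, in which all 6 symbols matched. Read depth is unknown from these lists, so no interval from reads was computed. Calculations used Python 3.11.15, numpy 2.4.6, pandas 2.3.3 and matplotlib 3.10.9, and the joining and pairing of peaks were tested on simulated data. Alternatives changed the score minimum, list size, overlap rule, flanks, fold and background units.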

Additional observations from a re-analysis of the deposited data

How the results depend on the processing

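The ratio of covered length in the 6 genes, 5 Gy over 0 Gy (1.62), was 1.55 with a score of at least 100 in both lists, 1.69 with lists cut to equal size, 1.63 with the whole length of touching peaks, 1.63 with 1 kb added on each side, 1.62 with at least 50% of a peak inside, and 1.49 without the longest 5 Gy peak of WDR43, an alternative chosen after seeing the data. The sum is carried by WDR43, which was chosen for its larger covered length at 5 Gy. For the other 5 genes together the ratio (1.32) ranged from 1.04, with a score of at least 100, to 1.37, a sum also chosen after seeing the data. WDR43 ranged from 1.58 to 1.84 and NCL from 0.85 to 0.87 over these alternatives, with no change of direction. With a score of at least 100, GAS5 kept the stronger peak only, 996 bp at 5 Gy and none at 0 Gy. The number of genes covered at least 1.5-fold more at 5 Gy was 1 in each alternative except a fold of 2, where it was 0. The median ratio over all regions (0.99) was 1.01 for regions joined within 1 kb and 1.0 for 5 kb tiles. Dividing the score ratio of the NCL peak at the 3′ end (0.044) by the median of all pairs, also chosen after seeing the data, gave 0.051. No paired analysis was possible because there was 1 library in each group. Scores and covered length both depend on sequencing depth, which is not known here.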
